A study of Mus musculus with 6 samples.

Results

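A set of 5 mature microRNAs known from liver and intestine was followed in mouse pancreas: mmu-miR-192-5p, mmu-miR-192-3p, mmu-miR-194-5p, mmu-miR-215-5p and mmu-miR-122-5p, written below without the species prefix. They were chosen by name, with earlier results of these data known, and all 5 were present among the 1414 mature arms of the deposited count table. The 6 small RNA libraries came from pancreas of wild-type C57BL/6 mice weighing 22 to 25 g, in 2 groups. The control group (libraries 43, 44 and 45) was given 7 intraperitoneal saline injections 1 hour apart. The model group (libraries 56, 57 and 59) was given caerulein on the same schedule, at 50 mg/kg in the labels' own unit, with lipopolysaccharide (LPS) added to the last injection. Caerulein is a cholecystokinin analogue that overstimulates acinar cells, and LPS is a bacterial cell wall component. Tissue was taken 24 hours after the start. Neither agent was given alone, so what each did cannot be told apart. Pooling of animals is not stated, and nothing in the labels ties each library to its own mouse, so p-values measure only the spread between these libraries.

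A microRNA is cut from a hairpin precursor, and either arm of the hairpin (5p or 3p) can be loaded into an Argonaute protein and guide it to messenger RNAs through its seed, near the 5′ end. miR-192 and miR-215 are sister miRNAs with the same seed, and each is encoded next to a copy of miR-194. They are abundant in intestinal epithelium, liver and kidney, where hepatocyte nuclear factors drive their transcription, and they are linked to p53 and to epithelial differentiation. miR-122-5p is the dominant miRNA of hepatocytes and is commonly read as a marker of liver RNA.

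The mature sequences show which members can be told apart by sequencing and which can be traced to a single hairpin. They are RefSeq's for GRCm38.p6, 5′ to 3′, with the seed (bases 2 to 8) in capitals, and 4 of the 5 members were matched.
miR-192-5p: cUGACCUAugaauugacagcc
miR-215-5p: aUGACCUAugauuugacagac
miR-192-3p: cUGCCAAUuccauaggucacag
miR-194-5p: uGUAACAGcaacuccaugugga
miR-122-5p is named only. Counted from the 5′ end, miR-192-5p and miR-215-5p differ at 3 of 21 positions, C1A, A12U and C20A, with the base of miR-192-5p first, and none of these lies in the seed. These were the only 2 rows of the table with that seed, and the seeds of miR-192-3p and miR-194-5p were found in no other row. Reads with sequencing errors could still move between miR-192-5p and its much scarcer sister; the labels and headers do not say how such reads were assigned.

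The hairpins lie in 2 clusters on the plus strand of GRCm38. On chromosome 19, Mir194-2 (6264643 to 6264728) is followed after 115 bp by Mir192 (6264844 to 6264932), and neither overlaps another gene in GENCODE M21. On chromosome 1, Mir194-1 (185313319 to 185313385) is followed after 195 bp by Mir215 (185313581 to 185313692). Both lie in an intron of Iars2, which runs on the opposite strand, and within the antisense noncoding gene 2010103J01Rik on their own strand, with Mir215 overlapping an exon of it. Because miR-194-5p has the same sequence in both clusters, its reads cannot be assigned to either, although the table lists it under chromosome 1. The 3p arms of the miR-194 hairpins do differ, at 4 of 22 positions, A8G, C19U, U20C and C22G, with the base of miR-194-1-3p first.
miR-194-1-3p: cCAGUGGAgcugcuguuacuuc
miR-194-2-3p: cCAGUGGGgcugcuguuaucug

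Total counts per library ran from 1943693 to 3006220. Levels are given as CPM, each count relative to its library's total after TMM scaling, and differences come from edgeR's quasi-likelihood test over the 499 rows that passed a filter on low counts. In that test 6 rows passed an adjusted p of 0.05, which is 1.20% of those tested (1.00% higher and 0.200% lower in the model group), and the groups did not overlap in 31.1%. The pancreatic identity of the tissue was read from acinar miR-216a-5p, at 19256 to 35582 CPM, and islet miR-375-3p, at 30851 to 69441 CPM. Control library 45 had the lowest total count and the highest miR-216a-5p.

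None of the members passed the test: 0 of 5 had an adjusted p under 0.05, 0 had an unadjusted p under 0.05 (23.8% of all rows did), and 0 passed with DESeq2 (7.65% of its rows did). The groups overlapped for all 5. The median log2 fold change was -0.03 over the members, 2 positive and 3 negative, and 0.005 over all rows tested. All 5 members passed the filter, but miR-215-5p did so in only 3 libraries, control 43, control 45 and model 56. The intervals are given with each member, since a p that misses the threshold does not show that the groups were alike. In bulk tissue, fewer cells of a type and less RNA per cell cannot be told apart.

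miR-192-5p, the main product of the chromosome 19 cluster, was the most abundant member and the steadiest. Its level was 2326, 3199.65 and 1940.5 CPM in control libraries 43, 44 and 45, and 1847, 2627 and 2836 CPM in model libraries 56, 57 and 59. High and low libraries occurred in both groups. The means were 2489 ± 645 and 2436 ± 521 CPM (SD, n = 3 each), and the log2 fold change was -0.03 ± 0.26 (SE; adjusted p = 0.967, edgeR). The 95% interval of the difference ran from -0.64 to 0.58, which is 0.642 to 1.49 times the control level. By mean level it ranked 68th of the 1414 rows, and it held 74.1% of all counts of the 5 members.

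miR-194-5p, which both clusters encode, ranked 108th and held 21.7% of the members' counts. It was at 463, 690.3 and 991 CPM in control libraries 43, 44 and 45, and at 446, 538 and 1237 CPM in model libraries 56, 57 and 59. The highest library of each group, control 45 and model 59, stood above all 4 others. The means were 715 ± 265 and 741 ± 433 CPM (SD, n = 3 each), a log2 fold change of 0.05 (95% interval -1.002 to 1.106, edgeR adjusted p = 0.967).

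miR-192-3p, the scarcer arm of the Mir192 hairpin, was highest in the same libraries as miR-194-5p, whereas its own 5p arm was low in control 45. It was at 5.01, 12.2 and 45.6 CPM in control libraries 43, 44 and 45, from 13, 25 and 76 counts. In model libraries 56, 57 and 59 it was at 8.15, 16.9 and 38.6 CPM, from 22, 55 and 129 counts. The same libraries, control 45 and model 59, were the highest, and within the control group the highest was 9.10 times the lowest. The group means were nearly equal, 20.9 ± 21.7 and 21.2 ± 15.7 CPM (SD, n = 3 each; log2 fold change 0.05, 95% interval -1.99 to 2.09, edgeR adjusted p = 0.988). Control 45 and model 59 were the highest 2 libraries in 43 of the 499 rows tested, or 8.62%, so this order was not particular to the members.

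**Figure D1:**
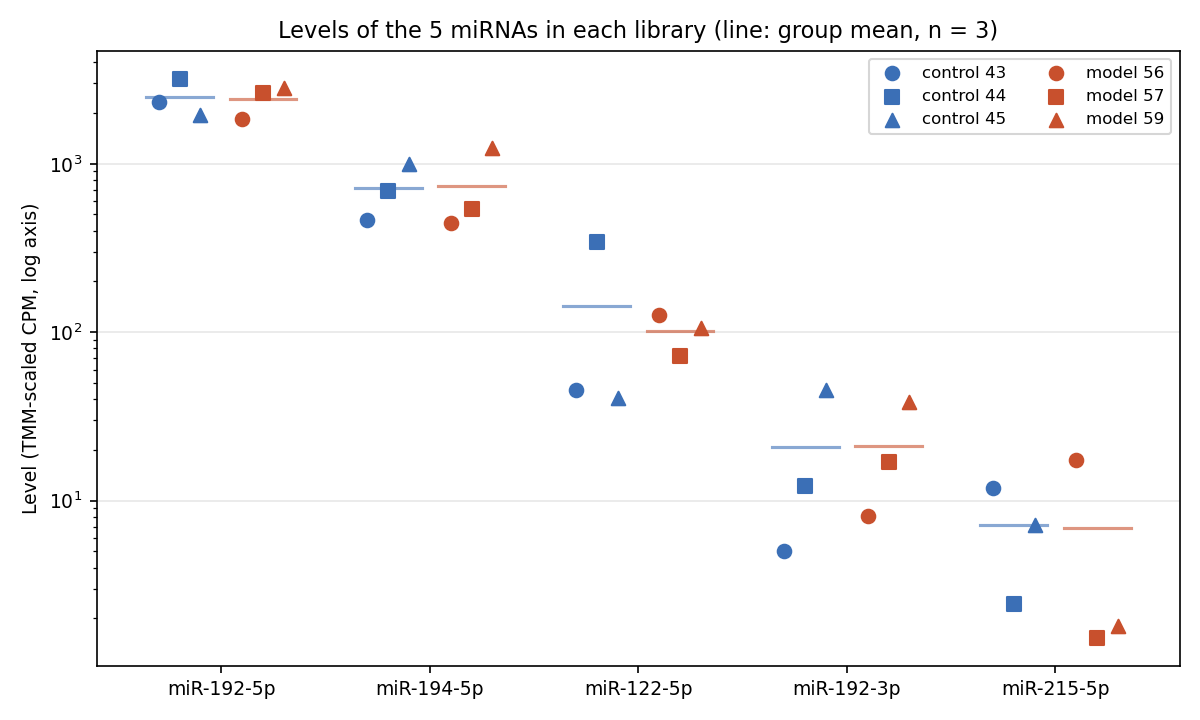
Levels of the 5 miRNAs in TMM-scaled CPM on a log axis, with a point for each library (control blue, model red) and a line at each group mean. The groups overlap for every miRNA, miR-194-5p and miR-192-3p are highest in control 45 and model 59, and miR-122-5p in control 44 stands at 345 CPM above all other libraries.

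miR-215-5p, the seed sister of miR-192-5p from chromosome 1, was close to the limit of detection. The counts were 31, 5 and 12 in control libraries 43, 44 and 45, and 47, 5 and 6 in model libraries 56, 57 and 59. As levels these were 11.9, 2.43 and 7.20 CPM in control and 17.4, 1.53 and 1.79 CPM in model libraries. Control 43 and model 56 were the highest libraries. For the 47 counts of model 56 the 95% exact Poisson interval was 34.5 to 62.5, and for the 5 counts of control 44 it was 1.62 to 11.7, so these libraries differed beyond counting error. Such intervals cover counting error only. The means were 7.19 ± 4.75 and 6.91 ± 9.10 CPM (SD, n = 3 each; log2 fold change -0.10, 95% interval -2.51 to 2.30, edgeR adjusted p = 0.971). Without model 56 the log2 fold change was -2.07 (edgeR adjusted p = 0.231). Without control 43, model 57 or model 59 it turned positive, to 0.50, 0.39 and 0.37. Its size and direction thus depended on which library was left out.

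The other arms from chromosome 1 appeared in the same libraries. miR-215-3p had 3 counts in control 43 and 13 in model 56, and 0 in the other 4 libraries. miR-194-1-3p, the arm that marks the chromosome 1 copy of miR-194, had 7 counts in control 43 and 8 in model 56, and 0 in the other 4. Neither passed the filter, and no test was made. A count of 0 allowed up to 3 counts, or 0.897 to 1.80 CPM in those 4 libraries, against 2.70 and 2.96 CPM for miR-194-1-3p and 1.16 and 4.82 CPM for miR-215-3p where they were seen. The 3 counts of miR-215-3p in control 43 thus do not stand above that limit. Control 43 and model 56 were the highest 2 libraries in 13 of the 499 rows tested, or 2.61%. Those rows include miR-215-5p but not miR-215-3p or miR-194-1-3p, and the share among untested scarce rows was not computed. That the chromosome 1 arms shared these libraries was seen in the data and was not tested.

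The arm that marks the chromosome 19 copy, miR-194-2-3p, had counts in every library. It was at 1.54, 2.92 and 5.40 CPM in control libraries 43, 44 and 45, from 4, 6 and 9 counts, and at 7.04, 5.21 and 8.37 CPM in model libraries 56, 57 and 59, from 19, 17 and 28 counts. Control 45 alone reached into the model range, overlapping model 57. The log2 fold change was 1.11 ± 0.52 (SE; 95% interval -0.09 to 2.31, edgeR adjusted p = 0.239), and it passed the filter through control 45 and the 3 model libraries. With the library totals behind the authors' normalized values the log2 fold change was 1.94 (edgeR adjusted p = 0.0249), a scaling under which 24.1% of rows were called higher.

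Of the miR-194 3p counts in a library, the chromosome 19 copy gave 4 of 11 in control 43, or 36.4% (95% exact Clopper-Pearson interval 10.9% to 69.2%). It gave 19 of 27 in model 56, or 70.4% (49.8% to 86.2%). In the other 4 libraries it gave all 6, 9, 17 and 28 counts, with lower bounds of 54.1%, 66.4%, 80.5% and 87.7%. At these counts a contribution from chromosome 1 in those libraries was not detectable, with 3 counts corresponding to 50.0%, 33.3%, 17.6% and 10.7% of the total. The hairpins may yield their 3p arms unequally, so these shares do not give the origin of miR-194-5p.

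**Figure D2:**
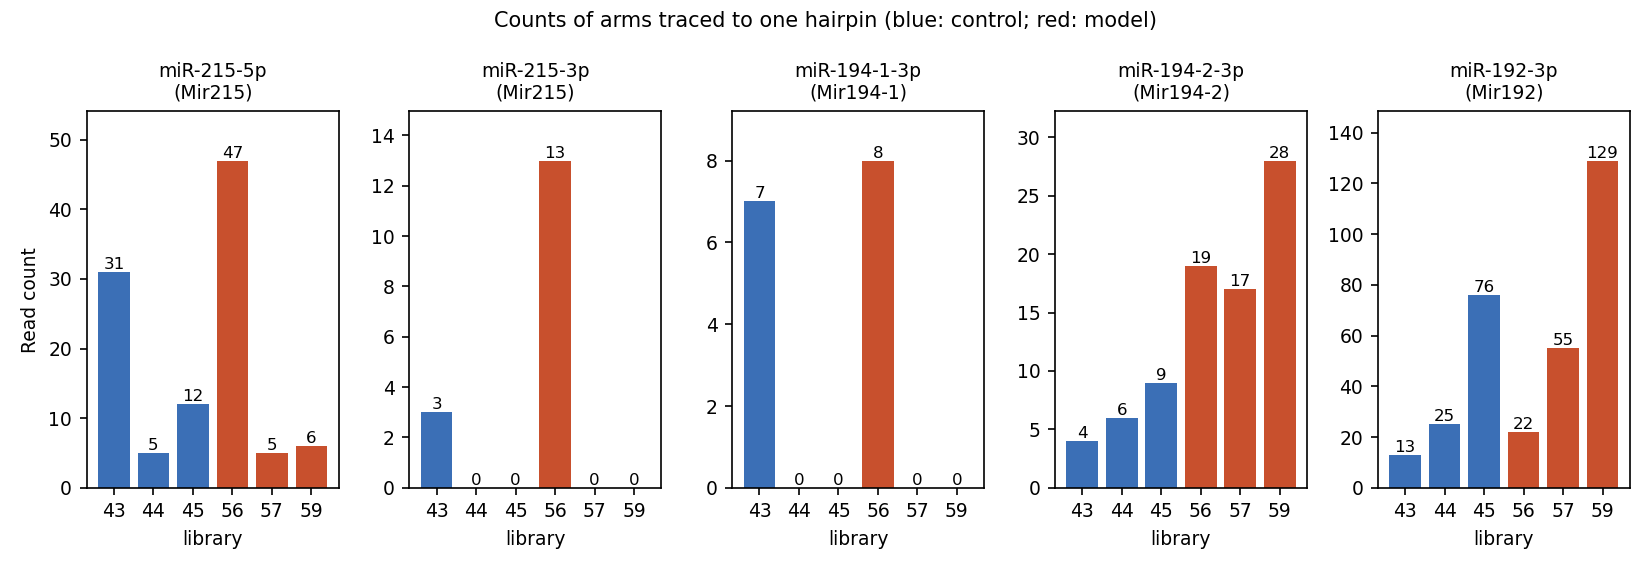
Read counts (vertical axis, its own scale in each panel, starting at 0) by library for the arms that come from a single hairpin. The 3 arms from chromosome 1 are highest in control 43 and model 56, and miR-215-3p and miR-194-1-3p are at 0 in the other 4 libraries. The arms miR-215-5p, miR-194-2-3p and miR-192-3p have counts in all 6.

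miR-122-5p, the hepatocyte miRNA, listed on chromosome 18, had its highest level in a control library. It was at 45.4, 345 and 40.8 CPM in control libraries 43, 44 and 45, from 118, 709 and 68 counts. In model libraries 56, 57 and 59 it was at 126, 72.4 and 106 CPM, from 341, 236 and 355 counts. Control 44 stood above every other library, and the remaining controls stood below all 3 model libraries. The means were 144 ± 174 and 102 ± 27.3 CPM (SD, n = 3 each; log2 fold change -0.50, SE 0.82, 95% interval -2.45 to 1.45, edgeR adjusted p = 0.787). Without control 44 the direction turned, to a log2 fold change of 1.22 (edgeR adjusted p = 0.153). Its 3p arm, miR-122-3p, had 1, 16 and 3 counts in the controls and 3, 8 and 0 in the model libraries, so it too was highest in control 44.

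The share of a library's counts held by miR-122-5p was 0.0298% in control 44 (95% Wilson interval 0.0277% to 0.0320%), against 0.00350% to 0.0137% in the other 5 libraries. For scale, miR-192-5p outnumbered miR-122-5p in every library, with 1 count added to each, 9.26 times in control 44 and 14.6 to 50.8 times elsewhere. Control 44 also had the highest summed level, 26529 CPM, of the 6 miRNAs on the list used for smooth muscle. The other controls were at 16616 and 18333 CPM and the model libraries at 16078 to 19651 CPM. That list was miR-143-3p, miR-143-5p, miR-145a-5p, miR-145a-3p, miR-133a-3p and miR-1a-3p. The sum was mostly miR-143-3p, at 24924.5 CPM in control 44, and the other rows of the list were divided. miR-145a-3p and miR-1a-3p were also highest in control 44, at 218 and 99.8 CPM. miR-145a-5p was lowest there, at 1253 CPM against 1432 to 2574 CPM elsewhere. miR-143-5p had 4 counts in control 44 and 4 in control 45, too few to order these libraries. miR-133a-3p was at 32.1 CPM in control 44, just under the 32.5 CPM of model 57. The summed epithelial level was also highest in control 44, at 107638 CPM, just above the 106016 CPM of control 45. The part of these levels in that of miR-122-5p was not tested.

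The spread between libraries, beyond counting error, differed strongly among the members. edgeR's biological coefficient of variation, a measure of that spread within groups, was 0.30 for miR-192-5p against a median of 0.32 over all rows. It was 0.42 for miR-194-5p, 0.69 for miR-122-5p, 0.72 for miR-192-3p and 0.82 for miR-215-5p. The last 3 ranked 20th, 17th and 12th of 499 from the most variable. In order of mean level, miR-192-5p lay above miR-194-5p in all libraries, and miR-194-5p above miR-122-5p. The ranges of miR-122-5p and miR-192-3p overlapped, and so did those of miR-192-3p and miR-215-5p. Ligation bias can distort levels between miRNAs.

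Ratios within a library do not depend on scaling between libraries. miR-192-5p outnumbered miR-192-3p, with 1 count added to each, 431, 253 and 42.04 times in control libraries 43, 44 and 45 and 217, 153 and 73.0 times in model libraries 56, 57 and 59. As log2 ratios the group means were 7.38 ± 1.76 and 7.07 ± 0.80 (SD, n = 3 each; difference -0.31, two-sided exact permutation p = 0.8, adjusted p = 1.0 over 4 ratios). The range over the 6 libraries was 3.36 on the log2 scale, the 6th widest of 123 hairpins with both arms tested and a mean of at least 10 counts on each, whose median was 1.53. The arm balance of miR-192 thus varied more between libraries of a group than between the groups.

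The ratios to the remaining members also had 1 count added to each count. That of miR-192-5p to miR-194-5p was 5.02, 4.63 and 1.96 in control libraries 43, 44 and 45. In model libraries 56, 57 and 59 it was 4.14, 4.88 and 2.29. Control 45 and model 59 were low and the other 4 lay close together. Between groups the log2 ratio differed by 0.007 (two-sided exact permutation p = 1.0). The ratio to miR-215-5p ran from 104 in model 56 to 1427 in model 57, with a log2 difference between groups of 0.65 (exact permutation p = 0.8). The log2 ratio to miR-122-5p differed by -0.22 (exact permutation p = 0.8). With 3 libraries against 3 this test cannot give a p below 0.1, and the adjusted p was 1.0 for each of the 4 ratios.

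**Figure D3:**
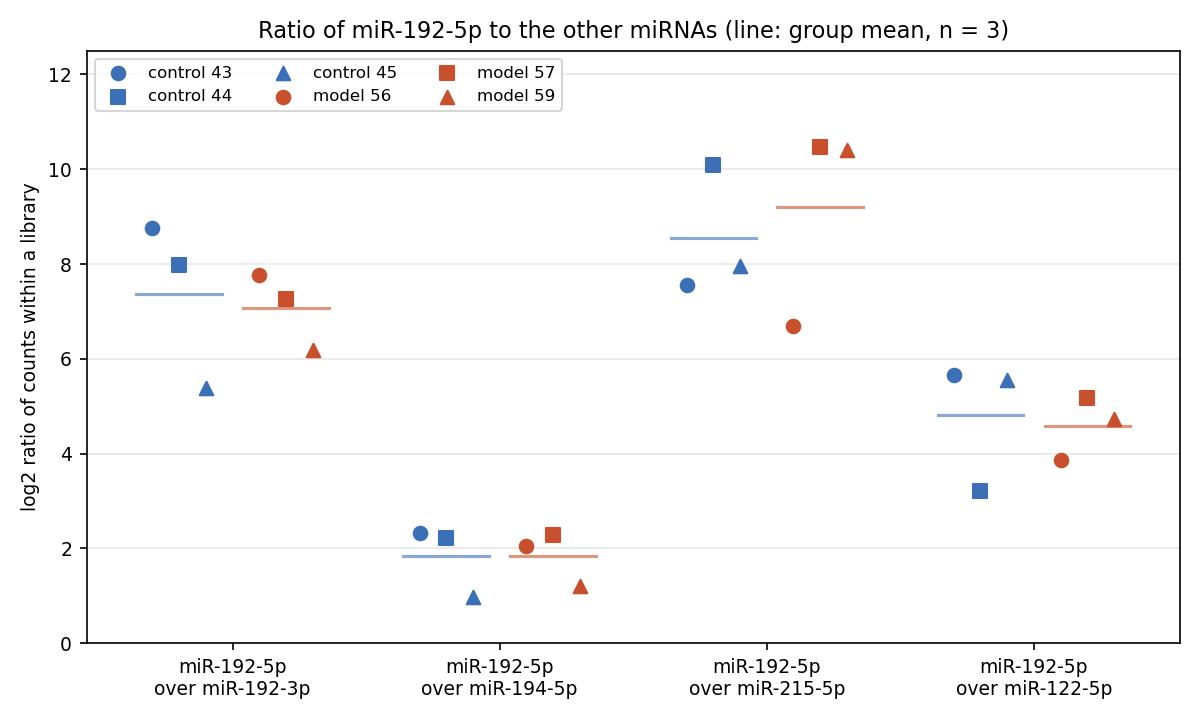
log2 ratio of miR-192-5p counts to those of each other miRNA within a library, with 1 count added, as points by library (control blue, model red) and lines at group means. Control 45 and model 59 are lowest against both miR-192-3p and miR-194-5p, and the group means lie within the spread of the points.

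Together the members took 0.282%, 0.367% and 0.260% of counts in control libraries 43, 44 and 45 and 0.265%, 0.353% and 0.489% in model libraries 56, 57 and 59. Model 59 was the highest and control 45 the lowest. The means were 0.303% ± 0.0565 and 0.369% ± 0.113 (SD, n = 3 each; two-sided exact permutation p = 0.6, adjusted p = 1.0 over 6 shares). Without control 45 and model 59, left out after the data were seen, the difference turned from 0.0666 to -0.0150 percentage points.

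The direction of each member depended on scaling. With the totals behind the authors' normalized values, the log2 fold changes were 0.77 for miR-192-5p, 1.06 for miR-192-3p, 0.94 for miR-194-5p, 0.47 for miR-215-5p and 0.26 for miR-122-5p. Still 0 of 5 passed the threshold, the lowest adjusted p being 0.103 for miR-194-5p, where 24.5% of rows were called. Over all rows, that scaling moved the median by 0.79 (log2), total counts alone by 0.29 and upper quartile factors by -0.29. The scaling quantities themselves separated the groups. TMM factors were 0.8585 to 0.9879 in control and 1.0849 to 1.1605 in model libraries. The deposited counts made up 7.17% to 9.43% of the authors' totals in control and 10.2% to 13.6% in model libraries. The reason for these differences was not tested. With upper quartile factors all 5 were negative, from -0.81 for miR-122-5p to -0.27 for miR-194-5p.

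**Figure D4:**
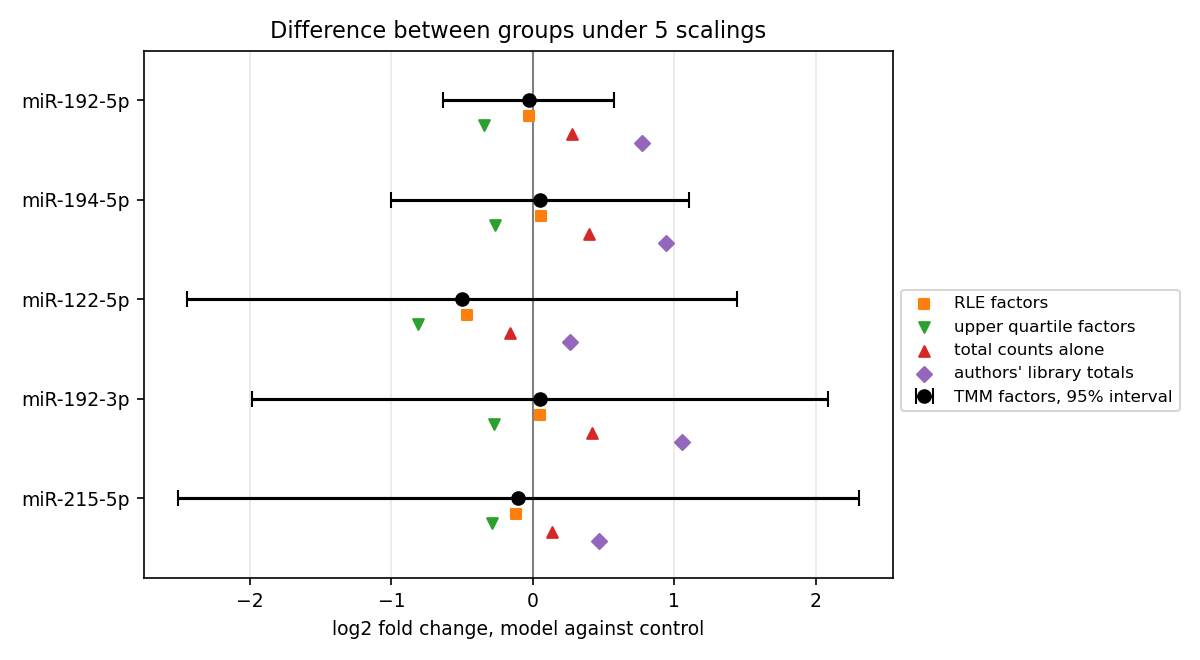
log2 fold change of model against control for each miRNA: black points with 95% intervals use TMM factors, and coloured points use 4 other scalings. Every TMM interval crosses 0, and the points for the authors' library totals lie to the right of the others.

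By the root mean square difference of log2(CPM + 1) profiles over the 6 libraries, each centred on its mean, the closest of 412 rows of at least 10 CPM to miR-192-5p was miR-10b-5p (0.12), followed by miR-93-5p and miR-34b-3p (0.16 each). Its own cluster partner miR-194-5p came 254th (0.55) and its own 3p arm 387th (1.08). For miR-122-5p, the closest were miR-196b-5p (0.50), miR-124-3p (0.61) and a predicted row (0.69). miR-196b-5p, encoded in a Hox cluster, was also highest in control 44, at 48.7 CPM against 7.20 to 31.6 CPM elsewhere.

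Markers of other cells in the tissue were read beside these results. Of the leukocyte list 1 of 6 rows was higher, myeloid miR-223-3p (log2 fold change 2.75, edgeR adjusted p = 0.0077), where 1.00% of all rows were called higher. The median was 1.62 over that list, and its most abundant row, miR-150-5p, was at -0.35 (edgeR adjusted p = 0.735). No row passed among 8 acinar (median -0.49), 5 islet (-0.30), 7 epithelial (-0.31), 5 smooth muscle (-0.13) or 5 erythroid rows (-0.11), the last including 2 with the same counts. The most abundant rows of these lists were miR-148a-3p (-0.55), miR-375-3p (-0.73), miR-200c-3p (-0.34), miR-143-3p (-0.26) and miR-451a (-0.37). No listed marker was at 0 in all libraries. The summed erythroid level was 13744 CPM in control 43 and 12252 CPM in model 56, the libraries with the chromosome 1 arms, and 7169 to 11972 CPM in the others. That sum is nearly all miR-451a, and none of the 5 erythroid rows had control 43 and model 56 as its highest 2 libraries: miR-451a was at 11578 CPM in control 44 and 11522 CPM in model 56. The summed acinar level was 97164 CPM in control 45 and 50886 CPM in model 59, where miR-192-3p was high, and 50646 to 60921 CPM in the others. The summed islet level was also highest in control 45, at 83017 CPM, but lowest in model 59, at 40556 CPM. The part of these differences in the members' levels was not tested.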

How the data were processed

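Small RNA of 18 to 30 nt was sequenced after ligation of adapters carrying molecular identifiers, per the labels' protocols. The authors deposited a table of whole-number read counts per mature arm, per the file headers, and RPM values, each count divided by a library total of 22055639 to 27876715 recovered here from rows with 100 counts or more. The labels and headers state neither the meaning of that total nor whether identifiers were collapsed. Bowtie2 and GRCm38.p6 are named without a role, per the submitters' processing notes.

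The fit used edgeR 4.0.16 (R 4.3.3): filterByExpr defaults (minimum count 10, minimum total 15), TMM factors, robust quasi-likelihood fit, two-sided, Benjamini-Hochberg over 499 rows, threshold 0.05. The script was tested on simulated data. Total counts of 1943693 to 3006220 limit scarce arms. Groups came from sample titles. Ratios and shares used exact permutation tests in scipy 1.17.1. Alternatives were RLE, upper quartile, no scaling, the authors' totals, no filter, DESeq2 1.42.0, known arms only, each sequence once and leaving out libraries. The members, the marker lists and the rule for named rows (the members, other arms of their hairpins, the most abundant row of each list, the 3 nearest profiles) were chosen with earlier results of these data known.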

Additional observations from a re-analysis of the deposited data

How the results depend on the processing

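No paired analysis was possible because the groups share no replicate numbers. No member passed the threshold under any alternative run. Other scalings moved rows over the whole table, so the shift was not particular to the members. Its median (log2) was 0.79 with the authors' totals, 0.29 without scaling beyond total counts and -0.29 with upper quartile factors. The members moved by unequal amounts: with the authors' totals miR-192-3p went from 0.05 to 1.06 and miR-215-5p from -0.10 to 0.47. What turned a direction under these scalings was not tested. Where leaving out libraries turned a direction, the cause was not tested. Without scaling beyond total counts, the log2 fold change became 0.28 for miR-192-5p and 0.14 for miR-215-5p. With the authors' totals it became 0.77 for miR-192-5p, 0.47 for miR-215-5p and 0.26 for miR-122-5p, and the share of miR-122-5p in those totals differed by 0.00022 percentage points. With upper quartile factors it became -0.27 for both miR-192-3p and miR-194-5p.

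Leaving out each library in turn moved the log2 fold change between -0.21 and 0.19 for miR-192-5p, -0.69 and 1.30 for miR-192-3p, -0.51 and 0.35 for miR-194-5p, -2.07 and 0.50 for miR-215-5p, and -0.97 and 1.22 for miR-122-5p. The log2 ratio of miR-192-5p differed between groups by -1.30 to 0.38 over miR-192-3p, -0.43 to 0.33 over miR-194-5p, 0.012 to 1.90 over miR-215-5p and -1.02 to 0.21 over miR-122-5p. Shares, in percentage points, differed by -0.00046 to 0.0016 for miR-192-3p, -0.010 to 0.038 for miR-194-5p, -0.00048 to 0.00038 for miR-215-5p and -0.0058 to 0.0073 for miR-122-5p.

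Leaving out control 45 and model 59 together was chosen after seeing the data. The log2 fold change was then -0.16 for miR-194-5p and 0.38 for miR-215-5p. The log2 ratio differed by -0.10 over miR-194-5p, -0.24 over miR-215-5p and 0.082 over miR-122-5p. The share differed by -0.0150 percentage points for all 5 together and -0.0103 for miR-192-5p.

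Over all rows, 5 were higher and 1 lower. RLE factors gave 7 and 8, upper quartile factors 6 and 39, no scaling 17 and 1, and the totals of the authors 121 and 2. No filter gave 23 and 35, DESeq2 19 and 19, and known arms only 8 and 7. Without control 45 and model 59 there were 0 and 0 with edgeR (99 rows at an unadjusted p under 0.05; DESeq2 was not run there). Without each library in turn, 3 to 5 were higher and 0 to 5 lower. Depth limits miR-215-5p and the 3p arms, which rest on few counts.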
